A study of Mus musculus with 7 samples.

Results

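Tubulins are the building blocks of microtubules, and 10 of their genes in the mouse were followed here among 34932 genes measured by RNA-seq: the beta isotypes Tubb1, Tubb2a, Tubb2b, Tubb4b, Tubb5 and Tubb6 and the alpha isotypes Tuba1a, Tuba1b, Tuba4a and Tuba8. They were chosen by name, as tubulin isotypes with Tubb1 as the one of platelets. The cells were bone marrow long-term haematopoietic stem cells (LT-HSCs), which can rebuild all blood lineages, sorted as negative for lineage markers and CD48 and positive for Sca-1, c-Kit and CD150. The 4 B4galt1 KO libraries came from mice with the label B4-/- on a 129S1/C57Bl/6 background, described as full knockouts, and the 3 B4galt1 WT libraries from mice of the same background with no deletion named. B4galt1 encodes an enzyme that adds galactose to glycans. The labels used here name no age or treatment and do not say whether animals were pooled.

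A microtubule is a hollow tube of alpha and beta tubulin pairs that grows and shrinks at its ends. Alpha and beta tubulins are each made from several genes, whose products differ mostly in a short acidic tail at the end of the protein, where motor proteins and modifying enzymes bind. In megakaryocytes, the marrow cells that shed platelets, microtubules drive the long extensions from which platelets form, and in the platelet they coil into the marginal band that keeps its disc shape. Tubb1 is the main beta isotype of that band, and loss of Tubb1 in mice gives few, rounded platelets. Tuba4a and Tuba8 are alpha isotypes tied to platelet formation, while Tuba1b, Tubb4b and Tubb5 serve most cells.

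The ends of the coding sequences of 3 beta isotypes are shown because the encoded tails are the part that sets isotypes apart. Each line holds the last 75 coding bases, stop codon included, from GENCODE M21 transcripts (GRCm38). Capitals mark bases not identical to Tubb5 in an alignment of the whole coding sequences. The Tubb1 sequence lies at chr2:174457808-174457882 on the plus strand, and Tubb2a at chr13:34074468-34074542 and Tubb5 at chr17:35834982-35835056 on the minus strand.
Tubb1: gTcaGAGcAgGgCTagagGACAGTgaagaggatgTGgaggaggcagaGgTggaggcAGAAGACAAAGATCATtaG
Tubb2a: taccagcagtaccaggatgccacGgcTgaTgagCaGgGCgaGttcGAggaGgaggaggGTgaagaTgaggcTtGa
Tubb5: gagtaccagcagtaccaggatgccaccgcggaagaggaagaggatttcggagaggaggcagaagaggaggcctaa

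Tubb1 had 35 of these 75 bases in capitals, against 16 in Tubb2a. Over the whole coding sequence, Tubb1 was 73.3% identical to Tubb5 and 74.9% to Tubb2a, whereas Tubb2a and Tubb2b were 96.5% identical and Tuba1a and Tuba1b 98.3%. How well reads can be assigned follows from this likeness, so the share of 31-base stretches of each transcript that also occur in transcripts of other genes in the files was counted. Tubb1 shared 0 of its 1376 stretches, Tuba8 1.93%, Tubb6 3.93% and Tubb5 4.47%. Tubb2a shared 56.4% and Tubb2b 45.9%, mostly with each other and with the pseudogene Tubb2a-ps2, which had 0 reads in all libraries. Tuba1a shared 78.6% and Tuba1b 75.2%, and Tubb4b shared 70.4%, mainly with its own pseudogenes. For Tuba4a the count used Tuba4a-202, chosen for its record in the consensus coding sequence (CCDS) set, which held at most 1.63% of the gene's TPM. It shared 51.8%, most of it with Stk16, a kinase gene on the opposite strand that overlaps 1379 exonic bases of Tuba4a. The Tuba4a transcripts with more reads were not examined in this count.

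As a check of the labels, B4galt1 RNA had 19.3, 14.9, 14.8 and 14.6 CPM in the KO libraries, against 19.2, 24.4 and 11.3 CPM in WT libraries. The groups overlapped, so each direction given here rests on the labels alone. These values are sums over all transcripts of the gene, and no exon was examined. A deletion of part of the gene could leave them unchanged, so they cannot decide on the labels. Of the surface proteins used in the sort, Slamf1 (CD150), Kit and Ly6a (Sca-1) RNA overlapped between the groups, at 67.8 CPM or more in every library. Cd48 RNA did not: it had 105, 126, 142 and 129.7 CPM in KO libraries and 25.2, 14.01 and 32.3 CPM in WT libraries (log2 fold change 2.40, SE 0.269, edgeR adjusted p = 0.000804). Other stem cell and surface genes also lay apart without passing. Cd34 (228 to 499.6 CPM in KO, 123 to 201 CPM in WT) and Ptprc were higher in KO. Procr (16.7 to 33.7 CPM in KO, 40.6 to 51.9 CPM in WT) and Mecom were lower (edgeR adjusted p = 0.0715, 0.197, 0.068 and 0.206). Hlf and Mki67 overlapped. The lymphoid marker Pax5 and the erythroid marker Slc4a1 were at 0 in all 7 libraries, but other genes of these lists were present, with sums of 226 to 407 CPM (lymphoid) and 276 to 1699.8 CPM (erythroid) in KO and 194 to 268 CPM and 203 to 1131 CPM in WT libraries. Across all genes, 88 were higher (0.599% of 14695 tested) and 244 lower (1.66%) in KO libraries, 2.26% in either direction. With the transcript length offset the counts were 213 higher and 250 lower, so the split of calls depends on that choice. KO replicate 4 and WT replicate 3 had Y-linked sums of 10.9 and 6.04 CPM, against 255.7 to 364.6 CPM in the other 5 libraries.

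In KO libraries, Tubb1, Tubb2a and Tuba1a fell, and no tubulin rose. These were 3 of the 9 members that passed the filter on low counts, beside 1.66% of all genes tested that were called lower, and 0 of 9 were called higher, beside 0.599% of all genes. At an unadjusted p below 0.05, 6 members were lower and 0 higher. The share of all genes at that threshold was not counted. In either direction it held at least 1823 of the 14695 genes, the place of Tubb6 by p-value (edgeR unadjusted p = 0.0384). With DESeq2 and with limma voom, 5 members were lower and 0 higher, since Tuba4a and Tuba8 passed as well. These tools called more of the 14695 genes too: DESeq2 514 lower and 352 higher, and limma voom 439 lower and 269 higher. All 9 log2 fold changes were below 0, with a median of -0.67 against 0.03 over all genes tested. In 7 of the 9, every KO library lay below every WT library, which 7.47% of all tested genes showed.

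**Figure D1:**
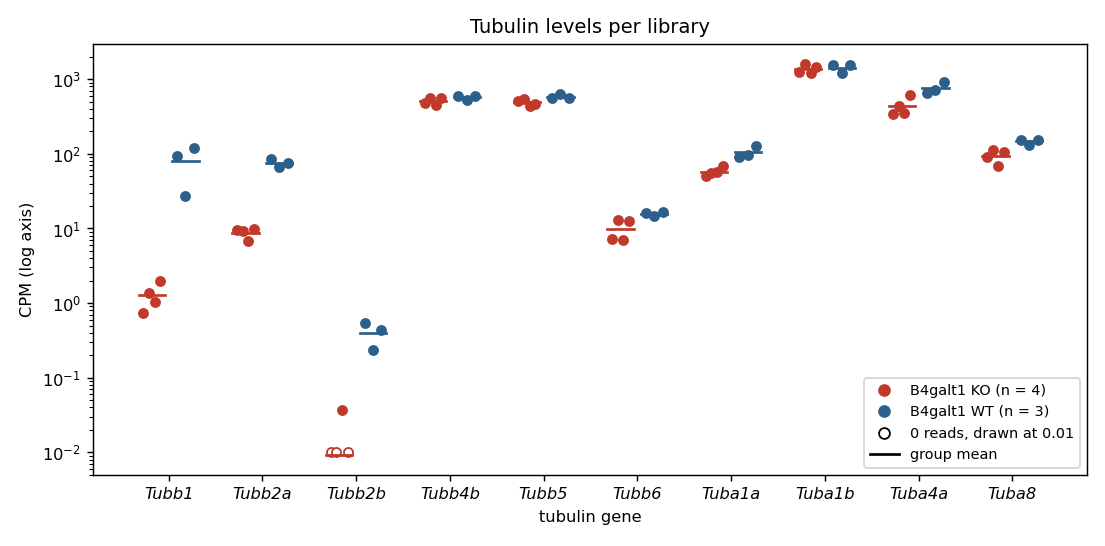
Normalised level (CPM, log axis) of each tubulin gene in every library, with the 4 B4galt1 KO libraries left of the 3 B4galt1 WT libraries, short lines for group means and open circles at 0.01 for libraries with 0 reads. Tubb1 (0.742 to 1.97 CPM in KO, 27.5 to 120.5 CPM in WT) and Tubb2a (6.76 to 9.70 CPM in KO, 66.9 to 84.6 CPM in WT) show the widest gaps, while Tubb4b and Tuba1b overlap.

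Tubb1 (ENSMUSG00000016255, GRCm38 chromosome 2, 174450695 to 174457882, plus strand), the platelet beta isotype, had 0.742, 1.37, 1.02 and 1.97 CPM in KO replicates 1 to 4, against 93.3, 27.5 and 120.5 CPM in WT replicates 1 to 3. Every KO library was far below every WT library, and among WT libraries replicate 2 was the low one. The KO values rested on 19, 37, 28 and 73 reads, so a low level of Tubb1 RNA remained detectable in each. The means were 1.28 ± 0.53 CPM in KO (SD, n = 4) and 80.4 ± 47.8 CPM in WT (SD, n = 3). Tubb1 was 61.8-fold lower in KO libraries (log2 fold change -5.95, SE 0.514, 95% interval -7.09 to -4.81, edgeR adjusted p = 0.000134). It stood at place 27 of 14695 when genes were ordered from the lowest fold change. In bulk RNA, fewer cells that carry a transcript and less of it per cell cannot be told apart.

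Without WT replicate 2, the library with the least Tubb1 among WT, the log2 fold change of Tubb1 was -6.39 (edgeR adjusted p = 4.22e-05). Within each library, the ratio of Tubb1 to the general isotype Tubb5 needs no scaling between libraries. The log2 ratio of their CPM was -9.44, -8.65, -8.72 and -7.88 in KO libraries and -2.59, -4.51 and -2.24 in WT libraries. The group means differed by -5.56 (KO minus WT; two-sided exact permutation test over libraries, p = 0.0571, the smallest that 4 against 3 allows). Relative to Tubb5, Tubb1 was lower in each KO library than in any WT library.

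Tubb2a (ENSMUSG00000058672, chromosome 13, 34074274 to 34078007, minus strand), a beta isotype best known from neurons, had 9.41, 9.39, 6.76 and 9.70 CPM in KO libraries, against 84.6, 66.9 and 76.0 CPM in WT libraries. The spread within each group was small beside the gap between them. The means were 8.81 ± 1.37 CPM in KO (SD, n = 4) and 75.8 ± 8.86 CPM in WT (SD, n = 3), which is 8.60-fold lower in KO (log2 fold change -3.10, SE 0.192, 95% interval -3.53 to -2.68, edgeR adjusted p = 1.35e-05). By p-value Tubb2a ranked 10 among all 14695 genes.

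Tubb2b, the neighbour and near-copy of Tubb2a on chromosome 13, did not pass the filter on low counts. It had 1 read over the 4 KO libraries and 31 reads over the 3 WT libraries, a WT to KO ratio of 49.0 with an exact counting interval from 8.17 to 1999. Intervals on reads cover counting error only. In the fit across libraries with no filter, its log2 fold change was -4.95 and did not pass (edgeR adjusted p = 0.0706). Because these genes share sequence, their reads were also summed in the same fit. The Tubb2a and Tubb2b sum had 9.41, 9.39, 6.80 and 9.70 CPM in KO libraries and 85.2, 67.1 and 76.4 CPM in WT libraries (log2 fold change -3.11, edgeR adjusted p = 1.28e-05). Tubb2a had 1039 reads in KO and 5681 in WT libraries, so this sum is nearly all Tubb2a and could hardly differ from it.

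The beta isotypes of most cells did not pass the test. Tubb5 had 516, 551, 431 and 463 CPM in KO libraries, against 563, 627 and 568 CPM in WT libraries. The groups did not overlap, but by a narrow margin (log2 fold change -0.26, 95% interval -0.59 to 0.07, edgeR adjusted p = 0.465). Tubb4b had 479.7, 556, 451 and 563 CPM in KO libraries and 591, 522 and 598 CPM in WT libraries, which overlapped (log2 fold change -0.15, 95% interval -0.49 to 0.18, edgeR adjusted p = 0.664). Tubb6, a beta isotype of low level here, had 7.18, 12.9, 6.98 and 12.6 CPM in KO libraries and 16.2, 14.5 and 16.6 CPM in WT libraries. Its KO libraries were all lower, and its log2 fold change of -0.67 (95% interval -1.29 to -0.04) did not pass (edgeR adjusted p = 0.31).

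**Figure D2:**
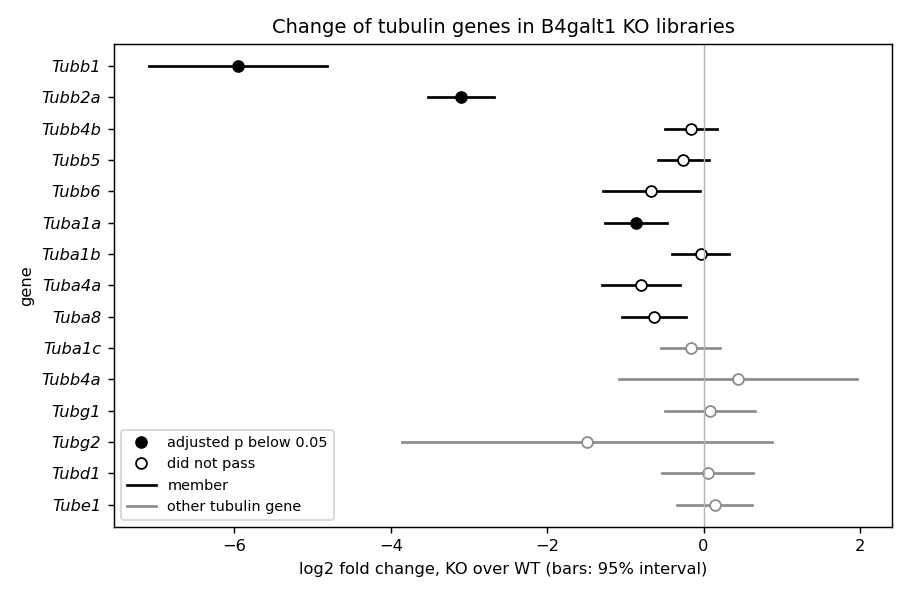
Log2 fold change (KO over WT) of the 9 tested members (black) and 6 other tested tubulin genes (grey), with bars for 95% intervals and filled points for adjusted p below 0.05. Tubb1 (-5.95), Tubb2a (-3.10) and Tuba1a (-0.87) passed the test.

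Among the alpha isotypes, only Tuba1a passed. Tuba1a (chromosome 15, 98949837 to 98953703, minus strand), known from developing neurons, had 49.9, 54.7, 57.3 and 68.6 CPM in KO libraries, against 89.7, 97.0 and 128.6 CPM in WT libraries. All KO libraries were lower (log2 fold change -0.87, SE 0.179, edgeR adjusted p = 0.0326). The call was lost without any 1 of 6 libraries, at adjusted p from 0.0559 to 0.121, and held only without KO replicate 4 (0.0168). Its near-copy Tuba1b, the general alpha isotype, had 1257, 1622, 1202 and 1475 CPM in KO libraries and 1538, 1210.3 and 1532 CPM in WT libraries. These overlapped (log2 fold change -0.04, edgeR adjusted p = 0.93).

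The sum of Tuba1a, Tuba1b and Tuba1c, which together take up the reads that cannot be placed, had 1478, 1882, 1433 and 1779 CPM in KO libraries and 1841, 1500.2 and 1913 CPM in WT libraries. Most of this sum is Tuba1b, so a change of Tuba1a alone would barely move it, and it bears little on the Tuba1a call. It overlapped between the groups, with a log2 fold change of -0.09 (95% interval -0.45 to 0.27, edgeR adjusted p = 0.821). Tuba1a has 380 stretches of 31 bases that no other gene in the files holds. Processed pseudogenes that share at least 40% of the Tuba1a stretches were at 8.32 CPM or less. The highest, Gm3226, had 3.55 to 5.40 CPM in KO and 2.01 to 8.32 CPM in WT libraries, and Gm17383 had 0 to 3.73 CPM in KO and 0 to 0.141 CPM in WT libraries.

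Tuba4a (chromosome 1, 75214228 to 75219865, minus strand), the alpha isotype of platelets and muscle, had 345, 433, 355 and 624 CPM in KO libraries, against 661, 727 and 912 CPM in WT libraries. KO replicate 4 came close to the lowest WT library. The log2 fold change of -0.80 (SE 0.224, 95% interval -1.30 to -0.31) did not pass (edgeR adjusted p = 0.112). It passed without KO replicate 4 (-1.01, edgeR adjusted p = 0.0119). It also passed in the 5 libraries with Y-linked expression, which leave out KO replicate 4 as well (-0.87, edgeR adjusted p = 0.0308). The overlapping gene Stk16 had 127 to 177 CPM in KO libraries and 131 to 146 CPM in WT libraries, which overlapped.

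Reads of Tuba4a were spread over several annotated transcripts. By TPM, Tuba4a-206 held 44.4% to 53.7% of the gene in KO libraries and 50.2% to 67.8% in WT libraries. Tuba4a-201 held 28.9% to 32.0% in KO and 27.4% to 30.4% in WT. Tuba4a-204 held 8.41% to 17.3% in KO libraries and 14.5%, 2.29% and 13.2% in WT libraries 1 to 3. WT replicate 2 stood apart in this make-up, with the smallest share of Tuba4a-204 and the largest of Tuba4a-206. Tuba4a-202, the transcript with a CCDS record used above for the shared stretches, held at most 1.63% in any library. Whether the other transcripts hold a complete coding sequence was not examined.

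Tuba8 (chromosome 6, 121210696 to 121226854, plus strand), an alpha isotype first described in muscle and testis and present in platelets, had 91.0, 114, 68.4 and 104 CPM in KO libraries, against 153, 132 and 155 CPM in WT libraries. The groups did not overlap. Its log2 fold change of -0.63 (SE 0.186, 95% interval -1.05 to -0.22) did not pass (edgeR adjusted p = 0.133). With DESeq2 it was at -0.65 (adjusted p = 0.0281).

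Levels of different genes were compared per length, as TPM. In KO libraries the order was Tuba1b (957 ± 171), Tubb4b (397 ± 72.9), Tuba4a (381 ± 159.7), Tubb5 (213 ± 21.5), Tuba8 (48.1 ± 11.6), Tuba1a (38.3 ± 9.20), Tubb6 (7.27 ± 2.78), Tubb2a (6.92 ± 1.42), Tubb1 (1.12 ± 0.575) and Tubb2b (mean TPM ± SD, n = 4). Neighbours whose libraries overlapped were Tubb4b with Tuba4a, Tuba8 with Tuba1a, and Tubb6 with Tubb2a. In WT libraries it was Tuba1b (872 ± 198), Tuba4a (566 ± 146), Tubb4b (387 ± 67.6), Tubb5 (218 ± 13.9), Tuba8 (65.6 ± 12.3), Tubb1 (63.4 ± 41.3), Tuba1a (61.1 ± 17.2), Tubb2a (52.5 ± 10.4), Tubb6 (10.1 ± 1.75) and Tubb2b (0.192 ± 0.0909; mean TPM ± SD, n = 3). Tuba1b overlapped with Tuba4a there, and Tuba8, Tubb1, Tuba1a and Tubb2a overlapped from each to the next. Tubb1 therefore stood ninth in KO libraries and sixth in WT libraries.

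As parts of the summed beta-tubulin TPM of each library, Tubb1 made up 0.105%, 0.172%, 0.162% and 0.256% in KO libraries and 9.41%, 3.14% and 11.8% in WT libraries. Tubb2a made up 0.97% to 1.21% in KO and 6.79% to 7.74% in WT libraries. The shares of all genes add up to the whole, so a lower share of these isotypes raises the others. Tubb4b held 61.0% to 66.2% of beta TPM in KO and 52.3% to 53.4% in WT libraries, although its CPM overlapped. Tubb5 held 30.9% to 36.6% in KO and 27.5% to 35.1% in WT libraries, which overlapped.

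On the alpha side, Tuba1b held 56.1% to 65.3% of the summed TPM in KO libraries and 49.3% to 56.0% in WT libraries. Tuba4a held 21.4%, 21.6%, 22.8% and 29.9% in KO libraries, against 29.7%, 35.2% and 35.7% in WT libraries, with KO replicate 4 just above WT replicate 1. Tuba8 held 2.66% to 3.46% in KO and 3.65% to 4.10% in WT libraries. The total of beta TPM was 537 to 755 in KO and 582 to 842 in WT libraries, and that of alpha TPM 1253 to 2059.7 in KO and 1297 to 2051 in WT libraries, so both totals overlapped.

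**Figure D3:**
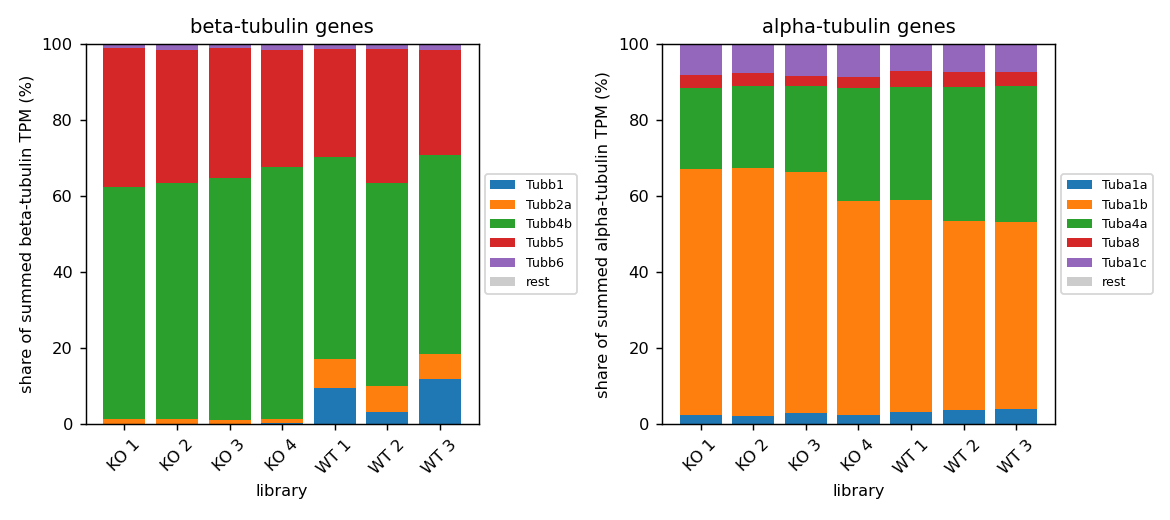
Share of each gene (percent) in the summed TPM of beta tubulins (left) and alpha tubulins (right) in each library, KO libraries before WT libraries. Tubb1 and Tubb2a fill a visible part of the bars of WT libraries, where Tubb1 holds 3.14% to 11.8%, and almost none in KO libraries, where it holds 0.105% to 0.256%.

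The other tubulin genes gave no call. Of 10 listed, 6 were tested and edgeR called 0, as did DESeq2 and limma voom, and 0 had an unadjusted p below 0.05, with a median log2 fold change of 0.07. Tuba1c, the remaining gene of the Tuba1 cluster, was at -0.16 and had 171 to 235 CPM in KO and 193 to 252 CPM in WT libraries. Tubg1, the gamma tubulin that seeds microtubules, had 47.8 to 72.5 CPM in KO and 33.5 to 74.4 CPM in WT libraries. The second gamma gene Tubg2 (log2 fold change -1.49) and the beta isotype Tubb4a (0.44) were under 2 CPM in all libraries. The delta and epsilon tubulins of centrioles, Tubd1 (0.05) and Tube1 (0.14), overlapped between the groups. The sign of Tubg1, Tubd1 and Tube1 turned under at least 1 alternative. Tuba3b had 0 reads in all libraries, and Tuba3a, Tubal3 and Tubb3 did not pass the filter.

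Genes that fold, modify, bind and move along microtubules were followed as lists. Of 21 tested genes for tubulin folding (the CCT chaperonin, prefoldin and tubulin cofactors), edgeR, DESeq2 and limma voom called 0, in none were the groups apart, and 1 was lower at an unadjusted p below 0.05 (median log2 fold change -0.05, against 0.03 over all genes). Of 32 tested motor genes (kinesins, dynein and dynactin), edgeR called 0, with 2 higher and 4 lower without overlap, beside 8.23% and 7.47% of all genes (median -0.06). At an unadjusted p below 0.05, 4 motor genes were higher and 2 lower. Over all 14695 genes tested, at least 1823 lay below that threshold in either direction. Of the motor genes, DESeq2 called 1 lower, and limma voom called 1 higher and 1 lower. Of 19 nucleation genes, 1 rose, beside 0.599% of all genes, and the list median was 0.27. This was Akap9, which anchors gamma-tubulin complexes at the Golgi and centrosome. Akap9 had 159.8 to 183 CPM in KO and 95.7 to 108 CPM in WT libraries (log2 fold change 0.77, edgeR adjusted p = 0.0177), and 6 of the 19 were higher without overlap, beside 8.23% of all genes. The Akap9 call was lost with any library but KO replicate 4 left out, at adjusted p from 0.0532 to 0.0906.

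Of 19 tested genes for tubulin modification, 1 fell, beside 1.66% of all genes, and DESeq2 and limma voom also called 1 lower and 0 higher. Ttll11, which adds long glutamate chains to tubulin tails, had 0.703, 0.370, 0.366 and 0.648 CPM in KO libraries, against 10.2, 9.93 and 6.47 CPM in WT libraries. Every KO library was lower (log2 fold change -4.07, SE 0.402, edgeR adjusted p = 0.000336). Of 35 tested microtubule-associated genes, edgeR called 2 lower and 0 higher, beside 1.66% and 0.599% of all genes. DESeq2 called 2 lower and 1 higher, and limma voom 3 lower and 1 higher. Map1a, a microtubule-binding protein known from neurons, had 0.0540 to 0.293 CPM in KO and 1.85 to 2.79 CPM in WT libraries (log2 fold change -3.81, edgeR adjusted p = 0.00931, and 0.0516 without WT replicate 1). Kif2a, a kinesin that takes microtubules apart, had 61.4 to 96.1 CPM in KO and 137 to 194 CPM in WT libraries (log2 fold change -0.998, edgeR adjusted p = 0.0227). With the transcript length offset Kif2a was at -0.47 and did not pass (edgeR adjusted p = 0.365), and it also lost the call without KO replicate 2 (0.0852), KO replicate 3 (0.0655), WT replicate 2 (0.0777) or WT replicate 3 (0.0532).

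**Figure D4:**
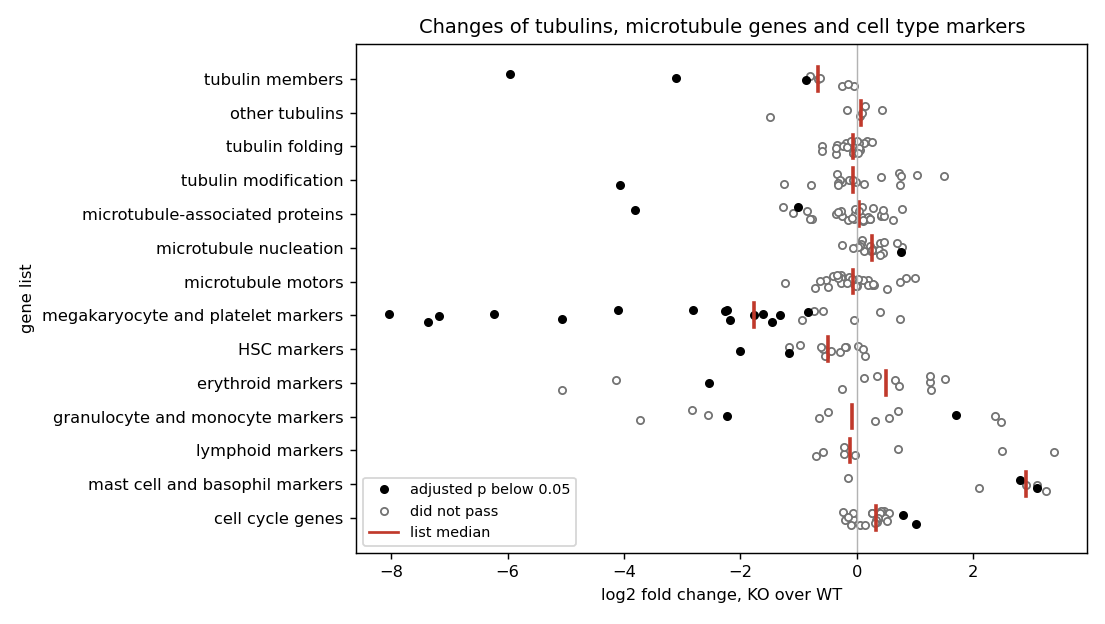
Log2 fold change (KO over WT) of each tested gene in the lists of tubulins, microtubule genes and cell type markers, with filled points for adjusted p below 0.05 and red bars for list medians. The tubulin members have a median of -0.67, the lists for folding, modification, associated proteins and motors have medians from -0.06 to 0.05, and the megakaryocyte and platelet markers have a median of -1.76.

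Markers of the megakaryocyte and platelet lineage moved with Tubb1 and Tubb2a. Of 21 listed markers, all tested, 15 fell and 0 rose, beside 1.66% and 0.599% of all genes, with a median log2 fold change of -1.76. In 16 of the 21 every KO library lay below every WT library, beside 7.47% of all genes. Their summed level was 2636 to 3276 CPM in KO libraries and 7859 to 14399 CPM in WT libraries, and none was at 0 in all libraries. Ppbp, a platelet chemokine, had 13.5 to 21.1 CPM in KO and 1468 to 3579 CPM in WT libraries, and Gp6, the platelet collagen receptor, 0.185 to 0.546 CPM in KO and 36.2 to 63.2 CPM in WT libraries. P2ry12, a platelet ADP receptor, and Clec1b, the receptor for podoplanin, had log2 fold changes of -4.10 and -6.23. Transcription factors of the lineage overlapped between the groups and did not pass: Gata1 had 70.7 to 130.3 CPM in KO and 45.8 to 83.2 CPM in WT libraries, and Nfe2, known to drive Tubb1 in megakaryocytes, 352 to 578 CPM in KO and 384 to 564 CPM in WT libraries (edgeR adjusted p = 0.515 and 0.936). The part of this lineage's cells in the tubulin results was not tested.

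Within the WT group these markers did not share 1 order of libraries. WT replicate 2 had the least Tubb1 (27.5 CPM, against 93.3 and 120.5) and the highest summed marker level, 14399 CPM against 10286 and 7859 CPM in WT replicates 1 and 3. Of the 21 markers, 11 were highest and 4 lowest in WT replicate 2. It had the most Pf4 (6376 CPM against 3697 and 2791), Ppbp (3579 against 2335 and 1468), Gp6 (63.2 against 51.8 and 36.2) and Clec1b (339 against 271 and 153), but the least P2ry12 (22.9 against 44.4 and 25.1), as it had the least Tubb1. Tubb2a was lowest in WT replicate 2 as well, by a smaller margin (66.9 CPM against 84.6 and 76.0). In KO libraries, replicate 4 had the most Tubb1 (1.97 CPM), and of the 21 markers 9 were highest and 7 lowest there. The summed marker level was 3276, 2751, 2636 and 2869 CPM in KO replicates 1 to 4. These are orders among 3 or 4 libraries, given with no test.

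**Figure D5:**
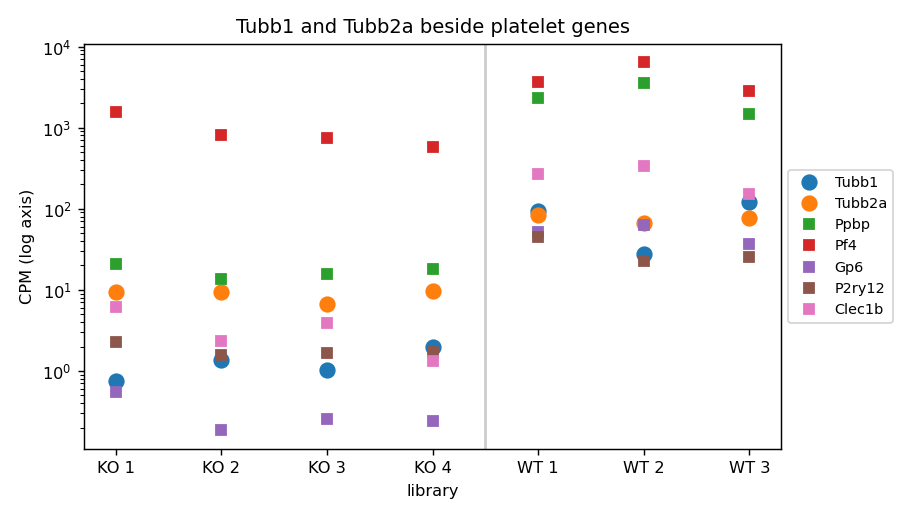
CPM (log axis) of Tubb1 and Tubb2a (circles) and of the platelet genes Ppbp, Pf4, Gp6, P2ry12 and Clec1b (squares) in each library, KO libraries left of WT libraries. All 7 genes are lower in every KO library than in every WT library, and WT replicate 2 is lowest among WT for Tubb1 (27.5 CPM), Tubb2a and P2ry12 (22.9 CPM) but highest for the other platelet genes.

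Markers of other cells also differed. Mast cell and basophil markers, of which 7 of 8 were tested, had a sum of 347 to 1269.5 CPM in KO libraries and 13.0 to 306 CPM in WT libraries. Of the 7, 2 rose, beside 0.599% of all genes: Fcer1a (log2 fold change 2.81) and Hdc (3.11). DESeq2 called 2 and limma voom 3 higher, and 3 were higher without overlap, beside 8.23% of all genes. HSC markers summed to 1593 to 1857 CPM in KO and 1994 to 2250.2 CPM in WT libraries. Of 14 tested, 2 fell, Cdkn1c (-1.998) and Mllt3 (-1.15), beside 1.66% of all genes, and 0 rose. The groups lay fully apart for 6 of these 14 with KO lower, which 7.47% of all genes showed, and for 0 with KO higher. As lower, 4 of the 14 passed with DESeq2 and 4 with limma voom, and as higher 0 with either tool. Erythroid markers overlapped at 276 to 1699.8 CPM in KO and 203 to 1131 CPM in WT libraries. Sptb was lower (-2.54), 1 of 12 tested, beside 1.66% of all genes, and the list median was 0.50. DESeq2 called 1 and limma voom 3 of these 12 lower, and both called 0 higher. Without overlap 3 were lower and 0 higher, beside 7.47% and 8.23% of all genes. Granulocyte and monocyte markers summed to 625 to 779.8 CPM in KO and 765 to 899 CPM in WT libraries, with Ms4a3 higher (1.70) and S100a9 lower (-2.22). These were 1 higher and 1 lower of 12 tested, beside 0.599% and 1.66% of all genes. Without overlap 2 were higher and 5 lower, beside 8.23% and 7.47% of all genes. DESeq2 and limma voom each called 3 higher and 4 lower. Of lymphoid markers, 0 of 8 passed in edgeR. At an unadjusted p below 0.05, 3 of these 8 were higher, beside at least 1823 of all 14695 genes in either direction. DESeq2 and limma voom each put 1 of the 8 higher. Of 24 cell cycle genes, whose cells build the mitotic spindle, Cenpe (1.02) and Cenpf (0.80) rose, beside 0.599% of all genes. DESeq2 and limma voom each called 2 higher, and 5 of the 24 were higher without overlap, beside 8.23% of all genes. The summed level of this list, 3867 to 5239 CPM in KO, overlapped 3666 to 4209 CPM in WT libraries. Of the edgeR calls among these markers, those of Cdkn1c and Cenpe held with any 1 library left out, and the others were lost without at least 1 library. The part of these cells in the tubulin results was not tested.

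The 5 protein-coding genes whose log2 CPM pattern over the 7 libraries came closest to that of Tubb1, by root mean square difference among 11286 genes, were Alox12 (0.716), F13a1 (0.746), Tgfb1i1 (0.771), Itgb5 (0.970) and Sh3bgrl2 (0.974). The measure takes in the gap between KO and WT libraries, so genes chosen by it were bound to be low in KO libraries. Alox12, the platelet lipoxygenase, had 1.60, 1.81, 2.30 and 4.89 CPM in KO libraries and 192, 186 and 173 CPM in WT libraries. Tgfb1i1, an adaptor of focal adhesions, had 0.554 to 1.24 CPM in KO and 32.0, 50.3 and 62.6 CPM in WT libraries. F13a1, a clotting factor subunit carried by platelets, had 0.270 to 0.665 CPM in KO and 29.0, 28.1 and 36.2 CPM in WT libraries. Of the 5, only F13a1 was lowest among WT in replicate 2, by a much smaller margin than Tubb1.

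The promoter windows of the 2 beta isotypes that fell are shown because both genes moved together. Each runs from 250 bases before to 50 bases after the gene's start in RefSeq (GRCm38.p6), 5′ to 3′, and capitals mark matches to the motifs searched. Tubb1 is at chr2:174450345-174450644, plus strand, a window that ends before the start GENCODE gives to the gene, and Tubb2a at chr13:34077959-34078258, minus strand.
Tubb1: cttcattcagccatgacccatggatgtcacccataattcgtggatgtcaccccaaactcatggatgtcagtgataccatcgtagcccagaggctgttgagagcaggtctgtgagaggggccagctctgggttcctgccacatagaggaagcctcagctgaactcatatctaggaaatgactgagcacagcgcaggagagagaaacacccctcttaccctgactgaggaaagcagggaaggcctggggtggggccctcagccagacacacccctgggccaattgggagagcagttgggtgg
Tubb2a: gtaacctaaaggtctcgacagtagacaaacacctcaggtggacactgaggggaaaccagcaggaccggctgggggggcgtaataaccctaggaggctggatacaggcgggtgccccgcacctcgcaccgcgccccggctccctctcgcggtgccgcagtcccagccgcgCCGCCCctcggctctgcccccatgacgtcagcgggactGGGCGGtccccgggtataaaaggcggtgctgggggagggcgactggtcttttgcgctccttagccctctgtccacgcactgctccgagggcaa

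The motifs were that of NF-E2, AGATAA for GATA factors, CCGGAAG for ETS factors and GGGCGG for SP factors, on both strands, and no 2 matches overlapped. Over 27025 promoter windows of this length, 0.425%, 11.4%, 9.12% and 35.9% held each of them in that order. The Tubb1 window held none of the 4. The Tubb2a window held GGGCGG at 2 places, starting 81 and 43 bases before the gene's start. Of the 8 members with a window in the table, Tubb2a, Tubb4b, Tubb5, Tuba1a, Tuba1b and Tuba4a held GGGCGG, and Tubb5 held AGATAA. Tubb1 and Tuba8 held none of the motifs. A match is only a run of letters, and its absence from 300 bases bears on this window alone. The Tubb1 window was 56% G and C and that of Tubb2a 67%, against a median of 52.7% over all windows.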

How the data were processed

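Bulk RNA-seq was measured in 7 libraries, 4 B4galt1 KO and 3 B4galt1 WT, grouped and numbered by their labels. Per the submitters' processing notes, reads were trimmed with cutadapt and quantified with Salmon 0.11.2 on mm10. The sources used here do not name the transcript set. The authors deposited estimated counts and TPM per transcript. TPM is scaled to transcript length, and estimated counts divide reads among transcripts that share sequence, so near-identical tubulin genes can exchange reads. The SMART-Seq v4 kit named in the labels' protocols keeps no strand.

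Transcripts were joined without version to GENCODE M21 (GRCm38). Of 112092 transcripts per library, 305 did not match. Counts were summed to 34932 genes and rounded. Totals ran from 23508985 to 34941390 reads. KO was tested against WT by quasi-likelihood in edgeR 4.0.16 (R 4.3.3), with TMM scaling, filterByExpr and Benjamini-Hochberg adjustment over all 14695 genes tested, at an adjusted p below 0.05. Adjusted p-values are from this test unless another tool is named. Log2 fold changes are KO over WT. CPM values use TMM-scaled totals. On simulated counts for this comparison (14351 genes tested), it recovered 36% of 100 genes changed 2-fold and 88% of 100 changed 4-fold, and called 8 of the 14154 unchanged genes tested.

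The members, gene lists and tests were chosen with earlier results of these data known. The rule named all members, other tested tubulins, up to 4 called genes per list and direction, B4galt1, and the 5 genes closest to Tubb1. The sort and lineage genes named as a check of the cell label were chosen outside this rule, after values were seen, as were the platelet genes set beside Tubb1 in each library. As alternatives, the comparison was run with upper quartile or RLE scaling, a stricter filter or none, DESeq2 1.42.0, limma 3.58.1 (voom with quality weights), a transcript length offset, a replicate block, protein-coding genes only, the 5 libraries with Y-linked expression, summed paralogs, and each library left out. No 2 libraries of a group agreed within sampling noise. The labels do not say that replicates are separate animals, so p-values measure the spread between libraries.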

Additional observations from a re-analysis of the deposited data

Results flagged for a closer look

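Of 45 quantities examined in the 4 KO libraries, 7 had 1 library far from the other 3. For independent values chance gives about 1 in 20, and groups of 3 were not examined. In KO replicate 3, Tubb2a was low at 6.76 CPM, against 9.39 to 9.70 CPM in the others, which is small beside the 66.9 to 84.6 CPM of WT libraries. In the same library Tubb2b was at 0.0366 CPM, from 1 read, against 0 in the others, and so its share of beta-tubulin TPM was 0.00433%. Tubd1 was at 17.2 CPM there, against 10.2 to 11.1 CPM. In KO replicate 4, Tuba4a held 29.9% of alpha-tubulin TPM, against 21.4% to 22.8% in the others. In KO replicate 1, P2ry12 was at 2.26 CPM, against 1.59 to 1.70 CPM, and B4galt1 at 19.3 CPM, against 14.6 to 14.9 CPM.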

How the results depend on the processing

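Tubb1 and Tubb2a kept their direction and their call under every alternative run for them: Tubb1 ran from -6.39 to -5.57 and Tubb2a from -3.27 to -3.003 on the log2 scale. For Tubb2a the alternatives included its sum with Tubb2b, which is nearly all Tubb2a. Tuba1a kept the call under other scaling, filters and tools. Its sum with Tuba1b and Tuba1c, which is mostly Tuba1b and no estimate of Tuba1a alone, was at -0.0923 and did not pass. With 1 library left out Tuba1a ran from -0.99 to -0.71. Tuba4a passed with DESeq2 (-0.82), limma voom (-0.96), the replicate block (-1.01) and the 5 libraries with Y-linked expression (-0.87), and lay between -1.01 and -0.68 when each library was left out. The replicate block and the 5 libraries with Y-linked expression both take KO replicate 4 out of the comparison, so they are not separate from leaving it out. Tuba8 passed with DESeq2 (-0.65) and limma voom (-0.79). DESeq2 and limma voom thus each called 5 members lower, and 2 to 4 were called with 1 library left out. The log2 ratio of Tubb1 to Tubb5 ran from -6.26 to -5.12.

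Signs turned for genes near 0. Tuba1b was at 0.0175 without KO replicate 3 and 0.0024 without WT replicate 1, and at its lowest -0.17 without another library. B4galt1 was at 0.0369 without WT replicate 2 and as low as -0.47 without another library. Tubg1 was at -0.11 with limma voom, and with 1 library left out from -0.20 to 0.33. Tubd1 ran from -0.16 to 0.16 and Tube1 from -0.0409 to 0.31. Over all genes, higher and lower counts were 352 and 514 with DESeq2, 269 and 439 with limma voom, 213 and 250 with the length offset, and 58 and 182 with the replicate block. The share of higher calls was 26.5% as reported, 40.6% with DESeq2, 38.0% with limma voom and 46.0% with the length offset. With 1 library left out, 30 to 130 genes were higher and 157 to 279 lower. The cause of these changes was not tested.

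Replicate numbers did not pair the libraries (correlations of deviations -0.05, -0.12 and -0.04). In the replicate block, KO replicate 4 had no WT partner and so added nothing to the difference of KO and WT. With this block Tuba4a gained the call (edgeR adjusted p = 0.0445), at -1.01, as it did without KO replicate 4 (-1.01). Akap9 (0.0736), Kif2a (0.0993), Map1a (0.0677), Cenpf and S100a9 (both 0.134) lost it.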
